A study of Mus musculus with 6 samples.

Results

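The gene set described here holds 31 genes for lysosomal enzymes, enzyme activators and membrane proteins, together with the transcription factors Tfeb and Tfe3. It was compiled by gene symbol, without proton pump subunits and cathepsins, and each of the 31 symbols matched exactly 1 of the 26699 rows of the deposited count tables. Lysosomes are acidic organelles in which hydrolases break down sugars, lipids and proteins taken up by the cell or delivered by autophagy. Macrophages depend on them to digest what they engulf, and osteoclasts, the bone-resorbing cells that form from macrophage precursors, also send lysosomal membrane and enzyme to the bone surface. TFEB and TFE3 are related transcription factors that bind an E-box element shared by many lysosomal promoters and are held in the cytoplasm by mTORC1 signalling from the lysosome surface.

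Polyadenylated RNA had been sequenced from primary bone marrow macrophages of mice aged 8 weeks, expanded in 10 ng/mL M-CSF and then kept in 30 ng/mL M-CSF with 50 ng/mL RANKL for 48 hours. Control cells (3 libraries) were Slc11a2flox/flox. Conditional knockout cells (cKO, 3 libraries) were LysmCre-Slc11a2flox/flox, in which Cre under the lysozyme M promoter deletes the metal transporter gene Slc11a2 in myeloid cells. All 6 libraries thus carry the floxed alleles and had M-CSF and RANKL, and the control carries no Cre, so Slc11a2 loss and the presence of Cre cannot be told apart. Nothing in the labels ties a library to a separate animal or culture, so the p-values rest only on the spread among 3 libraries per genotype, and that spread may be technical.

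Total counts were 49720701 to 57797282 per library. Slc11a2 was lower in all 3 cKO libraries (78.3 to 87.4 CPM, read counts scaled to library size) than in the controls (109.6 to 119 CPM), with a log2 fold change of -0.48 ± 0.06 (SE, edgeR quasi-likelihood adjusted p = 0.00219). Lyz2, the lysozyme M gene into which LysmCre is inserted, fell by 1.14 on the log2 scale. Of 16843 genes tested, 407 were called at an adjusted p below 0.05, or 2.42%. That share was 0.341% without cKO replicate 1, 1.36% without cKO replicate 2, 3.59% without cKO replicate 3, 0.522% without control replicate 1, 0.954% without control replicate 2 and 0.667% without control replicate 3. It was 2.40% with RLE scaling, 2.35% with upper quartile scaling, 2.16% with a trend over gene length removed, 4.18% with limma-voom and sample weights (limma-voom below), 1.64% without the low-count filter, 3.64% with a filter at 1 CPM, 4.00% with a replicate block and 6.29% with DESeq2. All 8 osteoclast markers listed were tested, and they summed to 11421 to 14820 CPM in control and 8256 to 11764 CPM in cKO libraries. None was called by edgeR, DESeq2 or limma-voom. An unadjusted edgeR p below 0.05 was found for 3, all lower in cKO cells, beside 17.2% of all genes tested. The 6 macrophage markers summed to 4327 to 4792 CPM in control and 4156 to 4417 CPM in cKO libraries. None was called by edgeR, and DESeq2 called Mertk higher. An unadjusted edgeR p below 0.05 was found for 2, 1 higher and 1 lower, beside 17.2% of all genes tested. In mixed cultures, fewer cells of a type and less RNA per cell cannot be told apart.

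Markers of other cell types differed widely in level. The stromal sums were of the order of the macrophage sums but were led by 2 collagen genes. Col1a1 had 1749 to 2857 CPM and Col1a2 1258 to 1990 CPM over the 6 libraries, whereas Pdgfrb had at most 77.0 CPM. Sums over different genes do not compare the numbers of cells of each type. Of 7 neutrophil markers tested, edgeR called 4 higher in cKO cells and 0 lower, beside 1.36% and 1.06% of all genes tested. Of those not called, Camp and Lcn2 had positive log2 fold changes and Mpo one of -0.82. The listed neutrophil markers summed to 51.5 to 67.0 CPM in cKO against 23.1 to 29.7 CPM in control libraries. The 6 stromal markers summed to 3417 to 3988 CPM in control and 3217 to 5163 CPM in cKO libraries, with cKO replicate 2 highest. None of these was called by edgeR, and DESeq2 and limma-voom called Pdgfrb higher. An unadjusted edgeR p below 0.05 was found for 2, both higher, beside 17.2% of all genes tested. Of 2 megakaryocyte markers tested, edgeR called Pf4 lower in cKO cells, beside 1.06% of all genes tested. The listed megakaryocyte markers summed to 30.4 to 37.8 CPM in cKO against 41.6 to 55.9 CPM in control libraries. That sum was nearly Pf4 alone, at 29.5 to 37.0 CPM against 40.9 to 55.1 CPM. Itga2b, at most 0.807 CPM, was not called (edgeR adjusted p = 0.829). Markers of dendritic cells, erythroid cells and T and NK cells summed to at most 4.81, 1.36 and 0.469 CPM in any library and those of B cells to 14.6 CPM, with none called by the 3 tools and no edgeR p below 0.05. Of the B cell marker Ms4a1, and of the T and NK cell markers Cd3e, Cd3g and Nkg7, no read was listed in any library. The part of these cells in the lysosomal values below was not tested.

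The lysosomal genes were well expressed and differed little between the genotypes. Between the genotypes, 0 of the 31 were called higher and 0 lower by the edgeR quasi-likelihood test, beside 1.36% and 1.06% of all genes tested (2.42% together). At an unadjusted p below 0.05 there were 5 of the 31 genes (16.1%), 2 higher and 3 lower, beside 17.2% of all genes. DESeq2 and limma-voom each called 1 of them, Smpd1, beside 6.29% and 4.18% of the genes to which they gave an adjusted p. The median log2 fold change of the 31 genes was -0.01, beside 0.00 over all genes, and single genes ran from -0.31 for Smpd1 to 0.18 for Lgmn. The signs were mixed, with 14 genes above 0 and 17 below.

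These small differences were measured closely. The standard error of the log2 fold change had a median of 0.06 over the 31 genes, beside 0.13 over all genes tested, and the lowest count of any of the 31 genes in any library was 1934 reads. For 18 of the 31 genes the 95% interval of the log2 fold change lay within 0.25 of 0 on either side, so that for these genes larger differences are outside the interval. In 8 of the 31 genes (25.8%) the 3 control and 3 cKO libraries did not overlap in CPM, beside 22.5% of all genes tested. They were Naglu, Neu1, Asah1, Smpd1, Cln3 and Ppt1, lower in cKO cells, and Lipa and Tfe3, higher.

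**Figure D1:**
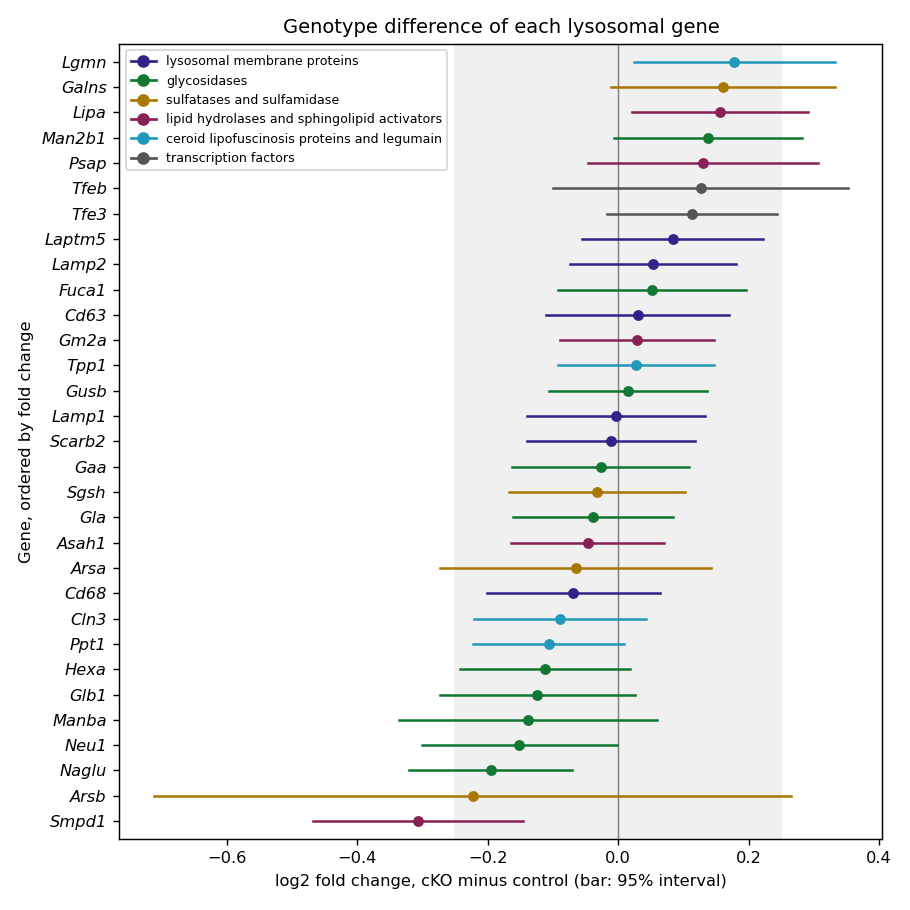
Log2 fold change (cKO minus control, x axis) of the 31 lysosomal genes (y axis), ordered by size and coloured by role, with bars for the 95% interval of the edgeR fit over 3 libraries per genotype. The grey band marks 0.25 on either side of 0, and 18 of the 31 intervals lie inside it, whereas the interval of Arsb reaches from -0.71 to 0.27.

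Levels between genes were compared per transcript length, as FPKM (fragments per kilobase and sequenced total) computed by the authors. Psap, which encodes the precursor of the 4 saposins that help enzymes reach sphingolipids, stood far above the rest at 4651 ± 410 FPKM in control and 5129 ± 319 FPKM in cKO cells (SD, n = 3). It ranked 4 among all genes of the tables, and in counts it alone took 1.33% to 1.71% of each library. The membrane proteins Cd68 (1153 ± 37.4 FPKM in control), Lamp1 (660 ± 31.4 FPKM) and Laptm5 (505 ± 23.2 FPKM) came next, followed by the asparaginyl protease gene Lgmn (365 ± 27.0 FPKM). The lowest were Arsa (11.2 ± 0.65 FPKM), Cln3 (10.8 ± 0.59 FPKM) and the regulator Tfeb (6.05 ± 0.81 FPKM). Neighbours such as Arsa, Manba (11.4 ± 0.11 FPKM) and Cln3 lay within each other's spread. Together the 31 genes took 2.88% to 3.21% of the counts in control libraries and 3.17% to 3.35% in cKO libraries, ranges that overlap.

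**Figure D2:**
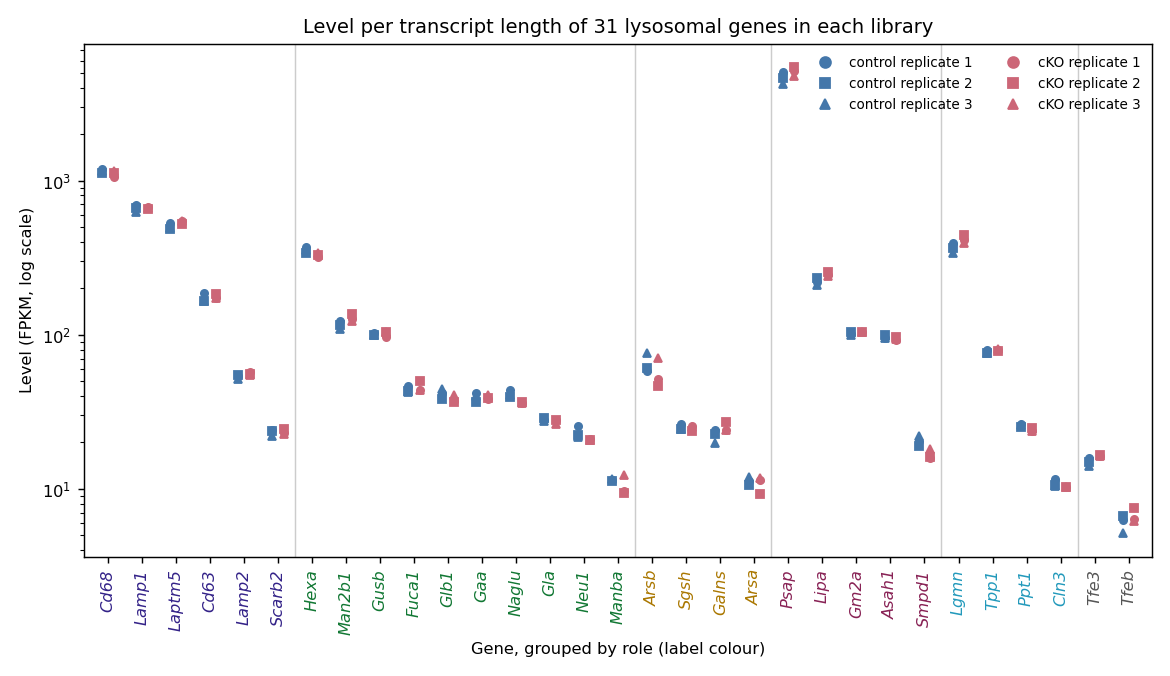
Level of each lysosomal gene in FPKM (y axis, log scale) in the 3 control (blue) and 3 cKO (red) libraries, with genes grouped by role along the x axis and marker shapes for the replicate number. Psap stands between 4241 and 5426 FPKM and Tfeb below 10 FPKM, while the 2 genotypes lie close together within each gene.

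The 6 membrane proteins showed no genotype difference beyond the spread between libraries, and in none of them did the genotypes separate. All 6 intervals lay within 0.25 of 0 on the log2 scale. Lamp1, a heavily glycosylated protein that lines the lysosomal membrane (ENSMUSG00000031447, chromosome 8, 13159161 to 13175338), had 2146, 2056 and 1935 CPM in the controls and 2098, 1988 and 2035 CPM in the cKO libraries, each in the order of replicates 1, 2 and 3, as in all such series below. All 3 cKO values lie inside the control range, and the 95% interval of the log2 fold change was -0.14 to 0.13 (adjusted p = 0.985). Its sign depended on the fit.

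Lamp2, the related protein that also serves chaperone-mediated autophagy (ENSMUSG00000016534, chromosome X, 38401357 to 38456454), had 599, 609 and 566 CPM in control and 639, 601 and 599 CPM in cKO libraries. The ranges overlap, with an interval of -0.07 to 0.18 (adjusted p = 0.699). Cd68, a macrophage member of the same family (ENSMUSG00000018774, chromosome 11, 69664213 to 69666153), had 1743, 1633 and 1658 CPM in control and 1537, 1601 and 1663 CPM in cKO libraries. Only cKO replicates 1 and 2 lie below the control range, with an interval of -0.20 to 0.06 (adjusted p = 0.621), and the sign turned to 0.02 with the trend over gene length removed. Laptm5, a transmembrane protein of blood cells, had a log2 fold change of 0.08, the tetraspanin gene Cd63 0.03, and Scarb2, the receptor that carries glucocerebrosidase to the lysosome, -0.01.

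The genes for enzymes and activators that act on lipids included both the lowest log2 fold change of the set and 2 of its 5 highest. Smpd1 encodes acid sphingomyelinase, which cleaves sphingomyelin to ceramide (ENSMUSG00000037049, chromosome 7, 105554360 to 105558389). It had 79.4, 73.3 and 84.8 CPM in control and 61.5, 60.7 and 69.7 CPM in cKO libraries, so every cKO library was below every control library. The log2 fold change was -0.31 ± 0.07 (SE), a difference of -19.2%, with an interval of -0.47 to -0.15. The adjusted p of 0.0521 missed the threshold, and it ranged from 0.0103 to 0.267 over the alternatives. Smpd1 was called in 6 of the 14 alternatives, among them with DESeq2 (adjusted p = 0.0103), with limma-voom (0.0287), without the low-count filter (0.0375), with the filter at 1 CPM (0.0432) and without cKO replicate 3 (0.0212). Smpd1 was not called with RLE scaling (edgeR adjusted p = 0.0526), upper quartile scaling (0.0647) or the length trend removed (0.0907). Nor was it called when any library other than cKO replicate 3 was left out. Its sign was negative in all 14 alternatives.

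Lipa, the acid lipase that hydrolyses cholesteryl esters and triglycerides (ENSMUSG00000024781, chromosome 19, 34492318 to 34527474), had 1717, 1822 and 1639.7 CPM in control and 1915, 1969 and 1886 CPM in cKO libraries. All cKO values lie above all control values, with a log2 fold change of 0.16 ± 0.06 (SE, unadjusted p = 0.0271, edgeR adjusted p = 0.225). Psap (ENSMUSG00000004207, chromosome 10, 60277627 to 60302597) had 16129.5, 14796 and 13406 CPM in control and 16487, 16888 and 15131 CPM in cKO libraries. Control replicate 1 lies inside the cKO range, and the log2 fold change of 0.13 ± 0.08 (SE) did not pass (edgeR adjusted p = 0.451). It was 0.07 without control replicate 3 and 0.20 without control replicate 1. Asah1, acid ceramidase, which acts on the product of Smpd1, had a log2 fold change of -0.05, and Gm2a, the activator that presents gangliosides to hexosaminidase, 0.03.

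Among the 10 glycosidases, 7 had negative log2 fold changes and the median was -0.08. Naglu removes N-acetylglucosamine from heparan sulfate (ENSMUSG00000001751, chromosome 11, 101070012 to 101077672). It had 135, 122 and 124 CPM in control and 112, 111 and 110.4 CPM in cKO libraries. The genotypes did not overlap, and the log2 fold change was -0.20 ± 0.06 (SE, unadjusted p = 0.00522, edgeR adjusted p = 0.106). No alternative called Naglu, with adjusted p from 0.0547 to 0.314.

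Neu1, the sialidase (ENSMUSG00000007038, chromosome 17, 34931253 to 34935953), had 110.4, 96.0 and 92.7 CPM in control and 91.7, 88.3 and 89.4 CPM in cKO libraries. Control replicate 1 stands above the other 5 libraries, and the other 2 controls lie just above the highest cKO value. The log2 fold change was -0.15 ± 0.07 (SE, edgeR adjusted p = 0.288), and -0.07 without control replicate 1. Man2b1, lysosomal alpha-mannosidase (ENSMUSG00000005142, chromosome 8, 85083270 to 85098282), had 1143, 1072 and 1009 CPM in control and 1186, 1235 and 1126 CPM in cKO libraries. Control replicate 1 overlaps the cKO range, and the log2 fold change was 0.14 ± 0.07 (SE, edgeR adjusted p = 0.311).

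Hexa, the alpha subunit of hexosaminidase A (ENSMUSG00000025232, chromosome 9, 59539540 to 59565109), had 856, 779 and 810.4 CPM in control and 743, 739 and 781 CPM in cKO libraries, which overlap at a single pair of values (-0.11 ± 0.06 SE, edgeR adjusted p = 0.367, and -0.07 without control replicate 1). Glb1, beta-galactosidase (ENSMUSG00000045594, chromosome 9, 114401076 to 114474898), had 145, 133 and 153 CPM in control and 129, 125 and 141 CPM in cKO libraries. These ranges overlap too (-0.12 ± 0.07 SE, edgeR adjusted p = 0.386), and the value was -0.07 without control replicate 3. A gene on the same strand, Tmppe, overlaps Glb1 and had 14.5% as many reads, so some reads could belong to either. The other 5 glycosidases were the alpha-glucosidase Gaa (-0.03), the alpha-galactosidase Gla (-0.04), the beta-glucuronidase Gusb (0.02), the beta-mannosidase Manba (-0.14) and the fucosidase Fuca1 (0.05).

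Of the sulfatase group, which removes sulfate from glycosaminoglycans and sulfatides, none separated by genotype. Galns, which acts on keratan sulfate and chondroitin sulfate (ENSMUSG00000015027, chromosome 8, 122578242 to 122611463), had 74.6, 69.4 and 60.6 CPM in control and 74.2, 81.3 and 73.4 CPM in cKO libraries. Control replicate 3 is the lowest library and control replicate 1 lies inside the cKO range (0.16 ± 0.08 SE, edgeR adjusted p = 0.322), and the log2 fold change was 0.09 without control replicate 3. Sgsh, the heparan sulfamidase, had a log2 fold change of -0.03 and Arsa, which desulfates sulfatide, -0.06. A gene on the opposite strand, Card14, overlaps Sgsh and had 9.05% as many reads. How the counting used strand is not stated in the labels or headers. Arsb, which removes sulfate from dermatan and chondroitin sulfate, had a log2 fold change of -0.22 with the widest error of the set (SE 0.19), described further below.

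The remaining enzymes and membrane proteins are those lost in neuronal ceroid lipofuscinosis, a storage disease, and legumain. Lgmn, which cuts after asparagine and processes other lysosomal proteases (ENSMUSG00000021190, chromosome 12, 102394084 to 102439813), had the highest log2 fold change of the 31 genes. It had 1058, 983 and 905 CPM in control and 1114, 1169 and 1050.1 CPM in cKO libraries, where control replicate 1 lies just inside the cKO range. The value was 0.18 ± 0.07 (SE, unadjusted p = 0.0270, edgeR adjusted p = 0.225), with adjusted p from 0.0564 upward in the alternatives. Ppt1, the palmitoyl-protein thioesterase (ENSMUSG00000028657, chromosome 4, 122836242 to 122859078), had 112, 107 and 109 CPM in control and 102, 103 and 100.4 CPM in cKO libraries. The genotypes did not overlap, at a log2 fold change of -0.11 ± 0.05 (SE, edgeR adjusted p = 0.334). Cln3, a multispanning membrane protein, was at -0.09 and the tripeptidyl peptidase Tpp1 at 0.03. Ppt1 and Cln3 each overlap an expressed gene on the opposite strand, Cap1 and Apobr, with 737% and 211% as many reads, and the counting's use of strand is not stated in the labels or headers, so reads of these pairs cannot be assigned with certainty.

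Transcripts of both transcription factors had positive log2 fold changes that did not pass. Tfeb (ENSMUSG00000023990, chromosome 17, 47737030 to 47792419) had 41.5, 44.2 and 33.7 CPM in control and 41.9, 48.0 and 40.3 CPM in cKO libraries. Control replicate 3 was the lowest, the ranges overlapped, and the log2 fold change was 0.13 ± 0.10 (SE, edgeR adjusted p = 0.588), or 0.02 without control replicate 3, 0.05 without cKO replicate 2 and 0.20 without control replicate 2. Tfe3 (ENSMUSG00000000134, chromosome X, 7762560 to 7775202) had 172, 161 and 151 CPM in control and 177, 173 and 173 CPM in cKO libraries. Each cKO value lay above each control value, at 0.11 ± 0.06 (SE, edgeR adjusted p = 0.361), or 0.07 without control replicate 3. RNA levels do not report where these proteins are in the cell, which is how their activity is mainly set.

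Promoter sequence is shown because the E-box is the element these factors bind. RefSeq promoter windows on GRCm38.p6, from 250 bases before to 50 after a start site, were found for 29 of the 31 genes, all but Asah1 and Galns. The E-box CACGTG, which reads the same on both strands, occurred in a window of 9 of these 29 genes (31%), beside 11.2% of the 11332 genes tested here that have a window and 8.09% of all 27025 symbols. In all 9 genes at least 1 match extended to TCACGTG, read on either strand, as did those of 6.64% of the tested genes with a window. Lamp1 had 4 E-boxes within 61 bases of its start, and the other 8 genes had 1 or 2. Naglu and Lgmn are shown as the E-box genes with the lowest and highest log2 fold change of the 9, Lamp1 for its cluster, and Glb1, Gaa and Gla as genes whose site lies upstream of the annotated gene. Each is printed 5′ to 3′ on the strand of the gene, with E-boxes in capitals.
Lamp1, chr8:13159088-13159160, plus strand: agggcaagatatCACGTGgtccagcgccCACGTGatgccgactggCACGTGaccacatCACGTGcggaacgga
Naglu, chr11:101070009-101070038, plus strand: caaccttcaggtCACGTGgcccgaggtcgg
Lgmn, chr12:102439124-102439153, minus strand: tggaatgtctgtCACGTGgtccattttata
Glb1, chr9:114401018-114401047, plus strand: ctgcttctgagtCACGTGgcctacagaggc
Gaa, chr11:119267811-119267840, plus strand: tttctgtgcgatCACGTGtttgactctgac
Gla, chrX:134601182-134601211, minus strand: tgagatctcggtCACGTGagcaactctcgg
In GENCODE M21 the Lamp1, Glb1, Gaa and Gla stretches lie upstream of the gene, that of Naglu meets a noncoding part of an exon and that of Lgmn lies in an intron, because the RefSeq start site lies inside the gene as annotated. The other E-box genes were Sgsh, with its site at -29 from the start, Arsa at -16, and Cln3 at -149 and -121. The 9 genes with an E-box had a median log2 fold change of -0.04, with 1 positive and 8 negative, and the 20 with a window and no E-box had 0.03, with 12 positive and 8 negative. These sign counts depend on the fit. Among the 9 genes the signs of Lamp1, Gaa, Gla, Sgsh and Arsa turned in at least 1 alternative. Among the 20 genes those of Scarb2, Cd63, Cd68 and Fuca1 did. The difference between the medians was not tested, and a match says nothing of binding in these cells.

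The share of the lysosomal genes that were highest in the same libraries as the osteoclast markers was close to that of all genes. Genes lowest in those libraries were more frequent in the set, at 11 of the 31 beside 13.9% of all genes tested. All 8 osteoclast markers were highest in replicate 3 of both genotypes. Acp5, an acid phosphatase of the resorbing osteoclast, had 2889, 2504 and 3312 CPM in control and 1751, 1760.5 and 2401 CPM in cKO libraries. Arsb (ENSMUSG00000042082, chromosome 13, 93771630 to 93943016) had 407, 427 and 530.1 CPM in control and 359, 317 and 492 CPM in cKO libraries. It was thus highest in replicate 3 of each genotype, by 1.27 times and 1.45 times the mean of the other 2 libraries, beside 1.23 and 1.37 times for Acp5. Manba had 92.6, 91.5 and 92.7 CPM in control and 78.6, 74.9 and 98.3 CPM in cKO libraries. The log2 fold change of Arsb was -0.43 without cKO replicate 3 (edgeR adjusted p = 0.0807) and -0.10 without control replicate 3 (0.884) or cKO replicate 2 (0.865). That of Manba was -0.27 without cKO replicate 3 (edgeR adjusted p = 0.0377), -0.09 without cKO replicate 1 (0.791) and -0.06 without cKO replicate 2 (0.789).

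Arsb, Manba, Smpd1, Glb1 and Arsa were highest in replicate 3 of both genotypes, or 5 of the 31 genes beside 14.9% of all genes tested, and for Manba the control replicates were nearly level. The opposite pattern, lowest in replicate 3 of both, was found in 11 of the 31 genes, among them Psap, Lgmn, Lipa, Man2b1, Galns, Tfeb and Tfe3, and in 13.9% of all genes tested. Both sets were picked by replicate 3, where all 8 osteoclast markers were highest. Their direction relative to the markers in that replicate therefore follows from the choice. The part of osteoclast marker levels in the lysosomal values was not tested. The median deviation of the 31 genes from the control mean, on the log2 scale, was 0.07, -0.02 and -0.03 in the controls and 0.01, -0.03 and 0.02 in cKO replicates 1 to 3, with control replicate 1 the highest of the 6 libraries.

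**Figure D3:**
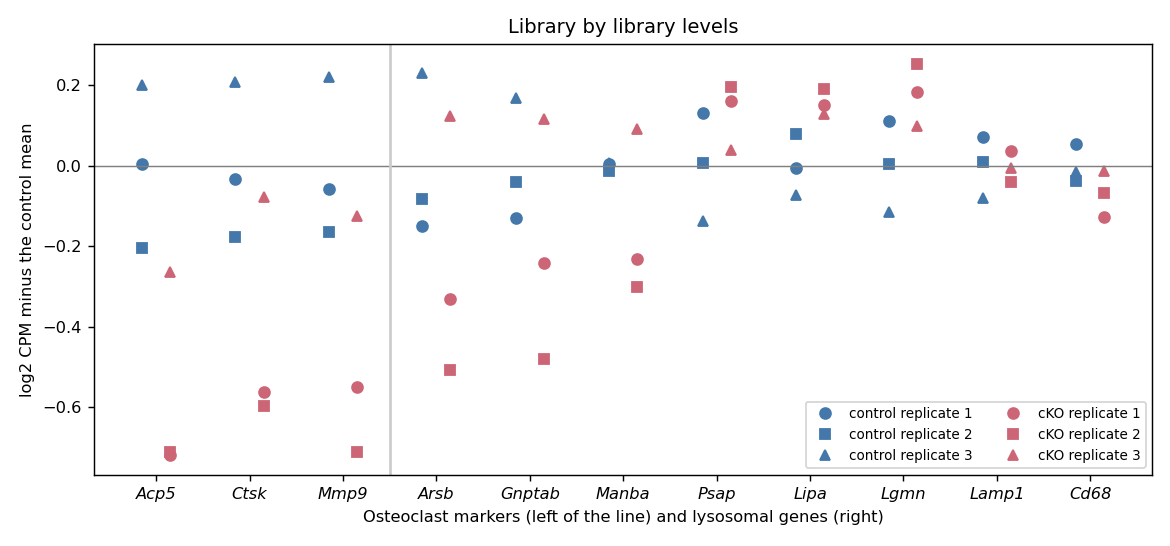
Level of 3 osteoclast markers (left of the line) and 8 lysosomal or related genes (right) in each library, as log2 CPM minus the mean of the 3 controls (y axis), with controls in blue, cKO in red and marker shapes for the replicate number. Replicate 3 (triangles) is the highest of its genotype for Acp5, Ctsk, Mmp9, Arsb, Gnptab and Manba and the lowest of its genotype for Psap, Lipa and Lgmn.

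Other lysosomal genes were taken from 4 lists, in all 91 genes, of which 1 was called higher and 2 lower, or 3 of 91 beside 2.42% of all genes tested. Their median log2 fold change was -0.05, with 34 positive and 57 negative values. Of 31 further hydrolases and activators, 0 rose and 1 fell. Hgsnat, the membrane acetyltransferase that works next to Naglu in heparan sulfate breakdown, had 177, 159.5 and 182 CPM in control and 124, 125 and 146 CPM in cKO libraries (-0.39 ± 0.08 SE, edgeR adjusted p = 0.0236). Every cKO library was below every control library, but the call was lost without control replicate 1 (adjusted p = 0.110) or 3 (0.109) and without cKO replicate 1 (0.173) or 2 (0.059). The galactosylceramidase Galc had a log2 fold change of 0.20 ± 0.06 (SE, edgeR adjusted p = 0.110) and the cholesterol carrier Npc2 one of -0.19 ± 0.06 (0.127). DESeq2 called 1 gene of this list higher, Galc, and 3 lower, among them Hgsnat and Npc2, beside 6.29% of all genes it tested. With limma-voom, Galc was called higher and 2 genes lower, Hgsnat among them, beside 4.18% of all genes tested.

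Of 22 further membrane proteins, 0 were called in either direction by edgeR, beside 2.42% of all genes tested, and 5 (22.7%) had an unadjusted p below 0.05, beside 17.2%. The peptide and histidine transporter Slc15a3 had a log2 fold change of 0.30 ± 0.08 (SE, edgeR adjusted p = 0.066), Tmem192 -0.26 ± 0.07 (0.0842), Ostm1, the partner of the chloride transporter ClC-7, -0.20 ± 0.06 (0.101) and Slc15a4 -0.22 ± 0.07 (0.139). DESeq2 called Slc15a3 higher and Tmem192 lower, and limma-voom Slc15a3 higher and Ostm1 lower. Over all genes, DESeq2 called 6.29% and limma-voom 4.18%.

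Of 15 genes that sort newly made enzymes to the lysosome, edgeR called 1 higher and 1 lower, beside 2.42% of all genes tested in both directions together. DESeq2 and limma-voom also called Vps35 lower, where they called 6.29% and 4.18% of all genes. Sort1, sortilin, a receptor that carries prosaposin and acid sphingomyelinase from the Golgi, had 135, 148 and 140.3 CPM in control and 203, 207 and 209 CPM in cKO libraries. Each cKO value was above each control value (0.55 ± 0.06 SE, edgeR adjusted p = 0.000402), and Sort1 was called in all 14 alternatives. Gga2, an adaptor that gathers mannose 6-phosphate receptors into vesicles, had 133, 129 and 131 CPM in control and 99.8, 104 and 119 CPM in cKO libraries (-0.29 ± 0.07 SE, edgeR adjusted p = 0.0497). That call was lost with upper quartile scaling (adjusted p = 0.0558) and without any library other than cKO replicate 3 (0.107 to 0.264). Vps35, of the retromer, was at -0.23 ± 0.06 (0.062), and the receptor M6pr at -0.13 ± 0.06 (0.303).

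Of 23 genes of lysosomal nutrient signalling to TFEB and TFE3, 0 were called by edgeR and 10 (43.5%) had an unadjusted p below 0.05, beside 17.2% of all genes tested, with 4 of these 10 positive. DESeq2 called Rheb and Tfec lower and limma-voom Tfec, beside 6.29% and 4.18% of all genes. Rheb, the GTPase that activates mTORC1, had a log2 fold change of -0.29 ± 0.07 (SE, edgeR adjusted p = 0.0663) and Tsc1, part of the complex that switches Rheb off, 0.23 ± 0.07 (0.118). Tfec, a relative of Tfeb, was at -0.30 ± 0.08 (0.090) and the calcineurin subunit Ppp3r1 at -0.16 ± 0.06 (0.162).

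**Figure D4:**
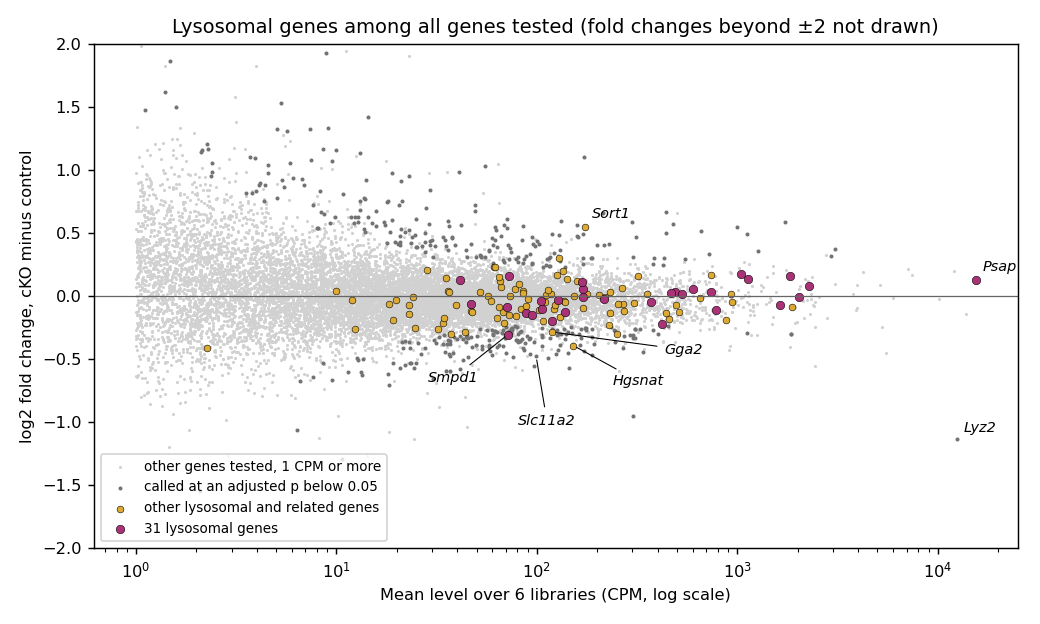
Log2 fold change (cKO minus control, y axis) against the mean level over 6 libraries in CPM (x axis, log scale) for genes with at least 1 CPM, with called genes in dark grey, the 31 lysosomal genes in purple and genes of the 4 further lists in yellow. The 31 lysosomal genes lie between -0.31 and 0.18, while Lyz2 lies at -1.14 and Sort1 at 0.55.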

How the data were processed

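RNA-seq of 3 control and 3 cKO libraries was analysed from the deposited per-library files. Per the file headers, these hold raw counts per gene and the authors' FPKM. The submitters' processing notes name cutadapt 1.9 and build mm10. For the aligner, counter, annotation and strand setting, nothing is given in the sources used here. Counts were tested with edgeR 4.0.16 in R 4.3.3 (filterByExpr with minimum count 10 and total 15, TMM scaling, robust quasi-likelihood F test), with Benjamini-Hochberg adjustment over all genes tested. The standard error is the log2 fold change divided by the square root of F. CPM are TMM-scaled, and FPKM served to compare levels between genes and to derive gene lengths. Alternatives used DESeq2 1.42.0, limma 3.58.1 (voom with sample weights), other scalings and filters, removal of a length trend, the replicate number as a block, and each library left out. The members and lists were chosen with earlier results of these data known. All members are named; libraries are given for the 12 lowest p-values and for Lamp1, Lamp2, Cd68, Tfeb and Tfe3, and up to 4 genes of each further list by lowest p, of which 1 is not reported here. Arsb, Manba and Acp5 are shown by library, and Gnptab in a plot, having been chosen after their values were seen. Coordinates are those of the files; 30 of 31 members have the same ones in GENCODE M21.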

Additional observations from a re-analysis of the deposited data

How the results depend on the processing

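Each result was recomputed under 14 alternatives. The 407 genes called over the whole table became 673 with the replicate block, 874 with DESeq2, 704 with limma-voom and sample weights, and 59 to 624 with a library left out. Of the 31 lysosomal genes, 0 were called higher in any alternative. The number called lower was 1 with the replicate block, DESeq2, limma-voom, no low-count filter and the filter at 1 CPM in 3 libraries, in each case Smpd1, and 0 to 2 with a library left out, where the 2 were Smpd1 and Manba without cKO replicate 3. It was 0 with the other scalings and with the length trend removed. The median log2 fold change of the set ran from -0.02 to 0.02. The further lists had 2 genes called lower, against 5 with the replicate block, 8 with DESeq2, 6 with limma-voom, 1 with upper quartile scaling, and 0 to 5 with a library left out. They had 1 called higher, against 2 with the block, 3 with DESeq2, 3 with limma-voom, 2 with the filter at 1 CPM, and 1 to 2 with a library left out. The cause of these shifts was not tested.

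Whether the replicate numbers pair the libraries was not settled. Deviations of same-numbered libraries correlated at -0.07, 0.05 and 0.26 over 9584 genes. The 0.26 of replicate 3 was the highest of all pairs across the genotypes, whereas control replicate 1 correlated best with cKO replicate 2 (0.17). With the block Smpd1 had an adjusted p of 0.0163.

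Signs turned in 18 of 434 comparisons, in 9 genes near 0. Lamp1 became 0.0172 with limma-voom, 0.0198 with upper quartile scaling, 0.0112 with the filter at 1 CPM and 0.0535 with the length trend removed, and Scarb2 became 0.0126 with upper quartile scaling and 0.0040 with that filter. With the length trend removed Cd68 became 0.0239 and Gla 0.0003. With a library left out, Lamp1 ran from -0.0391 to 0.0342, Scarb2 from -0.0502 to 0.0198, Cd63 from -0.0052 to 0.0929, Gaa from -0.0805 to 0.0233, Fuca1 from -0.0072 to 0.0981, Sgsh from -0.0573 to 0.0122 and Arsa from -0.1326 to 0.0464. Precision rested on 3 libraries per genotype, and no lysosomal gene had under 1934 reads in a library.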

Other observations

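E-boxes were also frequent in the promoter windows of the further lysosomal lists: CACGTG occurred in 17 of the 73 genes with a window (23.3%), and all 17 had the extended form TCACGTG on either strand.

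Gnptab, which encodes subunits of the enzyme that starts the mannose 6-phosphate tag on hydrolases, was chosen after its values were seen because it followed Arsb library by library. In the order of replicates 1, 2 and 3 it had 443, 471 and 545 CPM in control and 410.3, 348 and 525 CPM in cKO libraries, with a log2 fold change of -0.19 ± 0.16 (SE, edgeR adjusted p = 0.625). Of the 91 genes of the further lists, 21 were highest and 12 lowest in replicate 3 of both genotypes, beside 14.9% and 13.9% of all genes tested.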
